A study of Homo sapiens with 4 samples.

Results

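ATP-binding cassette (ABC) transporter genes were examined in lapatinib-resistant HER2-positive breast cancer cells. A list of 43 genes of this superfamily was used, and a gene was followed through the array probes whose RefSeq accession belongs to it. Probes were found for 42 of the 43 genes, among 16419 genes named on the array. ABCG1 had no matched probe and is named only. Of the 42 genes, 27 had a probe with a signal of at least 100 on at least 1 array, among 12156 named genes that passed this filter, and the other 15 were under it on every array.

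ABC transporters bind and hydrolyze ATP in paired nucleotide-binding domains to move molecules across membranes. The drug efflux pumps ABCB1 (P-glycoprotein), ABCG2 (breast cancer resistance protein) and several ABCC proteins expel anticancer drugs or their conjugates, and are known for multidrug resistance in tumor cells. Lapatinib itself is known to bind to ABCB1 and ABCG2 and to inhibit their transport. Other members export lipids and sterols, carry substrates into lysosomes, peroxisomes and mitochondria, or regulate a potassium channel, and the E and F families have no membrane-spanning part, and several of their members act in translation.

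Total RNA was hybridized to 4 arrays, 1 per group. The groups were vehicle-treated parental SkBr3 cells, vehicle-treated parental BT474 cells, and 1 lapatinib-resistant clone of each line, called SkBr3/Lap and BT474/Lap, that had been selected with increasing lapatinib up to 1 μM. Both are HER2-positive breast cancer lines and were grown in DMEM/F12, and lapatinib inhibits the kinases EGFR and HER2. Each resistant group is 1 clone, so differences between clones of a line and differences made by resistance cannot be told apart. For its protein blots, the paper kept both clones in 1 μM lapatinib. If the array cells were kept so too, drug exposure and resistance cannot be told apart either. The labels number the clones 3 for SkBr3 and 6 for BT474, the names of the deposited data and the paper have these numbers the other way round, and which is right is not known.

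The signal is the background-subtracted brightness of a probe in arbitrary units. It is set between arrays by subtracting, on the log2 scale, the array's 75th percentile, which was 1115 for SkBr3 and 2074 for its clone, and 1158 for BT474 and 1681 for its clone. An equal signal on a parental and a clone array is therefore a lower scaled level in the clone. Signals below are as deposited, fold changes are of scaled values, and levels are compared only within a probe. No fold change has a replicate check, and spots repeated within an array varied with a median SD of 0.07 to 0.08 (log2). The SkBr3/Lap array lay on a slide of its own, so slide and clone cannot be told apart in the SkBr3 pair, whereas both BT474 arrays shared a slide. Of 7 markers of HER2-positive luminal breast epithelium, 6 were well above background on the SkBr3 arrays and all 7 on the BT474 arrays, and the exception was CDH1, the E-cadherin gene. ERBB2, which encodes HER2, was 3.74-fold lower in SkBr3/Lap and 1.57-fold lower in BT474/Lap.

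To see which ABC genes these cells express, the detection flag of the scanner software was read on every array. A gene was called detected if any of its probes had at least 50% of its spots well above background. This applied to 26 of the 42 genes in SkBr3 and 28 in its clone, and to 28 in BT474 and 31 in its clone. Of all probes, 66.6% were well above background in SkBr3 and 73.7% in its clone, and 68.3% in BT474 and 74.0% in its clone. Of the 42 genes, 24 were detected on all 4 arrays. On none of the 4 arrays were detected ABCA8, ABCA9 and ABCA13 of the lipid-transporting A family, ABCB4, the bile phospholipid exporter, ABCB5, ABCB11, the bile salt export pump, ABCC9, a sulfonylurea receptor, ABCD2, a peroxisomal fatty acid carrier, and ABCG8, a sterol half-transporter. Their signals lay at or below 15.0.

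The other 9 genes were detected on 1 to 3 arrays. In the SkBr3 pair, ABCB1, ABCC4, ABCA10 and ABCG5 were detected in the clone and not in the parent, and ABCC11 and ABCG4 in the parent and not in the clone. In the BT474 pair, ABCB1, ABCA6 and ABCG5 were detected in the clone only, and no gene in the parent only. ABCB1 and ABCG5 were thus the members detected in both clones and in neither parent. How many of all probes were detected on only 1 array of a pair was not counted. Of all probes, more were well above background in each clone than in its parent, 73.7% against 66.6% for SkBr3 and 74.0% against 68.3% for BT474. For ABCG5, the partner of ABCG8 in sterol export, the signals were 13.9 in SkBr3 and 36.0 in its clone, and 11.4 in BT474 and 17.9 in its clone, all under the filter. After scaling, its log2 fold changes as they stand were only 0.47 in SkBr3/Lap and 0.12 in BT474/Lap. Against the dimmest detected probe of the parental array it was at least 1.21-fold higher in SkBr3/Lap, and no such limit can be given for BT474/Lap. The plot of scaled signals shows each of the 42 genes on the 4 arrays.

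In both resistant clones, 2 of the 27 ABC genes that passed the filter were at least 2-fold higher than in the parent, ABCB1 and ABCG2. Both had signals under 100 in the parents and so passed the filter only through the clones. This count is therefore not independent of the filter. Among all 25927 kept probes, 2.69% were higher than the own parent by 2-fold or more in both clones. ABCC11 was the only one of the 27 that was at least 2-fold lower in both clones, where the share of all kept probes was 1.23%.

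ABCB1, which pumps a wide range of hydrophobic drugs out of cells, had a mean signal of 3.96 in SkBr3 and 2038 in its clone, and 4.70 in BT474 and 236 in its clone over 10 spots per array. None of the 10 spots was well above background in either parent, and all 10 were in both clones. Against the dimmest probe of the parental array that was well above background, ABCB1 stood at least 68.4-fold higher in the SkBr3 clone and at least 10.2-fold higher in the BT474 clone. Single spots lay between 1937 and 2105 for the SkBr3 clone and between 81.5 and 286 for the BT474 clone, where 1 spot was marked as an outlier. The log2 fold changes from the values as they stand were 8.11 and 5.11, and they differed with the treatment of the background, being 4.48 and 1.87 after normexp correction and quantile normalization and 5.80 and 3.07 after 16 was added to the signals.

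**Figure D1:**
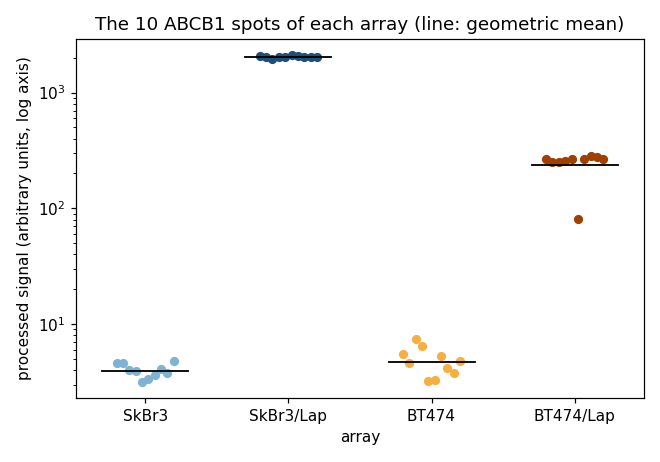
Processed signal (y axis, arbitrary units, log axis) of the 10 ABCB1 spots on each of the 4 arrays (x axis), with the geometric mean as a line. The spots of SkBr3/Lap lie between 1937 and 2105, those of BT474/Lap between 81.5 and 286, and no parental spot exceeds 7.48; spots of 1 array are not replicate samples.

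ABCG2, the efflux pump known for expelling topotecan and mitoxantrone, was well above background on all 4 arrays. Its signal was 99.1 in SkBr3 and 69050 in its clone, and 99.5 in BT474 and 9092 in its clone. The parents thus had nearly the same signal, and both clones were far above them. The difference was 375-fold in SkBr3/Lap (log2 8.55) and 63.0-fold in BT474/Lap (log2 5.98). Under the alternatives run the log2 values stayed between 7.97 and 8.71 in SkBr3/Lap and between 5.39 and 6.15 in BT474/Lap. Both ABCG2 and ABCB1 had the larger value in SkBr3/Lap, a difference between the clones that was not tested.

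To ask what both pairs share, limma with the cell lines as a block and 1 residual degree of freedom gave a log2 fold change of 7.26 for ABCG2 (95% interval 4.89 to 9.63) and 6.61 for ABCB1 (95% interval 3.95 to 9.28). The ABCB1 estimate and interval rest on parental signals not well above background, so they move with the treatment of the background and bound nothing. The Benjamini-Hochberg adjusted p of limma was 1.00 for both. No member and 0 of the 25927 kept probes had a limma adjusted p below 0.05, while 2 of the 27 members, ABCB1 and ABCG2, and 3.47% of all kept probes had an unadjusted p below 0.05. As ABCB1 and ABCG2 passed the filter only through the clones, where they are high, that count of members is not independent of the comparison.

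ABCB1 and ABCG2 are also known in endothelium, so markers of other cell types were read beside them. Of 4 endothelial markers, 2 were well above background in SkBr3 and 3 in its clone, and 1 in BT474 and 2 in its clone, and their summed signals were 192, 1399, 910 and 665. VWF was well above background on all 4 arrays, with 119 in SkBr3 and 320 in its clone, and 892 in BT474 and 594 in its clone, and was 1.44-fold higher in SkBr3/Lap but 2.18-fold lower in BT474/Lap. PECAM1 had 160 in the SkBr3 clone and 55.2 in the BT474 clone and was not well above background in either parent, CDH5 had 58.4 in SkBr3 and 915 in SkBr3/Lap, and KDR was not well above background on any array. Of 4 fibroblast markers with a probe, COL1A2, DCN and LUM were not well above background anywhere and PDGFRB was in SkBr3/Lap only, with 64.8; the summed signals ran from 16.7 to 83.5. Of 5 leukocyte markers, 3 or 4 were well above background on each array, with summed signals of 902, 1141, 182 and 220, and PTPRC, the pan-leukocyte marker, was so on none. All 4 samples were cultured breast cancer cells and not mixed tissue, and bulk RNA does not show which cells a signal came from. The part of these markers in the ABC results was not tested.

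The sequences upstream of the genes were examined because ABCB1 and ABCG2 were higher together. RefSeq (GRCh38.p14) gave the 250 bases before a transcription start for 35 of the 43 genes, with 53 windows, of 35116 windows over all genes. The window of ABCB1 with CCAAT boxes (chr7:87600885-87601134, minus strand, 55.6% GC) and 1 of 2 overlapping windows of ABCG2 with GC boxes (chr4:88158910-88159159, minus strand, 71.2% GC) are shown, read 5′ to 3′ in the direction of transcription. Capitals mark CCAAT boxes in ABCB1 and GC boxes in ABCG2, on either strand.
ABCB1: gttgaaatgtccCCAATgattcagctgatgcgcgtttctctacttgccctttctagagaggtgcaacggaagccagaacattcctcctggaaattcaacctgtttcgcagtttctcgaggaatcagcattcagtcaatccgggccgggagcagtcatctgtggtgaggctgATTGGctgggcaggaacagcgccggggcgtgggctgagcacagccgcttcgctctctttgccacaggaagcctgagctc
ABCG2: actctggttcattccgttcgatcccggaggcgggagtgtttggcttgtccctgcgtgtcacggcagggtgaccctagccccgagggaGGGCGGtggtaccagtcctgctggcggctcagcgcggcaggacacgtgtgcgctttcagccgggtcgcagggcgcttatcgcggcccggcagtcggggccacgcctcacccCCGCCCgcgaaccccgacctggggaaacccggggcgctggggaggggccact
The ABCB1 window held 2 CCAAT boxes and no GC box, and the ABCG2 window held 2 GC boxes and no CCAAT box, counted as exact letters. The windows shown were picked for these boxes, and both genes also have a window with neither box. Of all windows, 32.0% held CCAAT and 42.6% held GGGCGG on either strand, and of the windows of ABC genes 20.8% and 47.2% did. The NF-κB consensus was found in 9.96% of all windows and in 9.43% of the windows of ABC genes, those of ABCC6, ABCA2, ABCB9 and ABCF1, and in no window of ABCB1 or ABCG2. The antioxidant response element core TGACNNNGC was found in 10.9% and 17.0%, and in no window of ABCB1, ABCG2, ABCC2 or ABCC11. TATAAA was found in 10.7% and 11.3%, ABCC2 included. No motif searched is contained in another, and a match is a description of the letters.

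ABCB1 and ABCG2 lie on different chromosomes, 7 and 4, and their neighbors in RefSeq gene order were read next, 5 on each side. The closest gene to ABCB1 on one side, ABCB4, was not well above background on any array. The closest on the other side was RUNDC3B, with signals of 4.59 in SkBr3 and 118 in its clone, and 113 in BT474 and 666 in its clone. RUNDC3B was at least 3.95-fold higher in SkBr3/Lap, as its SkBr3 signal was not well above background, and 4.05-fold higher in BT474/Lap. It was the only one of 8 kept neighbors of ABCB1 to be 2-fold or more above the own parent in both clones. ADAM22, which encodes a neuronal membrane protein, was higher by 4.77-fold in the SkBr3 clone and by 1.17-fold in the BT474 clone, and CROT, a peroxisomal carnitine acyltransferase gene, was 2.95-fold lower and 1.83-fold higher.

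Next to ABCG2, 5 neighbors were kept, and 4 of these were at least 2-fold higher in SkBr3/Lap, 3 in BT474/Lap, and none was 2-fold lower in either clone, where 12.9% and 10.3% of all kept probes were higher. PKD2, a calcium channel gene and the nearest on one side, had signals of 126 in SkBr3 and 1420 in its clone, and 333 in BT474 and 1132 in its clone. PPM1K, a mitochondrial phosphatase gene and the nearest matched gene on the other side, had 30.6, 210, 628 and 3838 in the same order. PKD2 was 6.04-fold and 2.34-fold higher, and PPM1K 3.69-fold and 4.22-fold higher, in SkBr3/Lap and BT474/Lap. HERC6 was 2.29-fold and 1.81-fold higher and HERC5 3.33-fold and 3.38-fold higher, both being known interferon-induced ubiquitin ligase genes, while PIGY, the next in order, had log2 fold changes of 0.27 and -0.04. The differences of ABCG2 exceeded those of each of these neighbors in both clones.

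**Figure D2:**
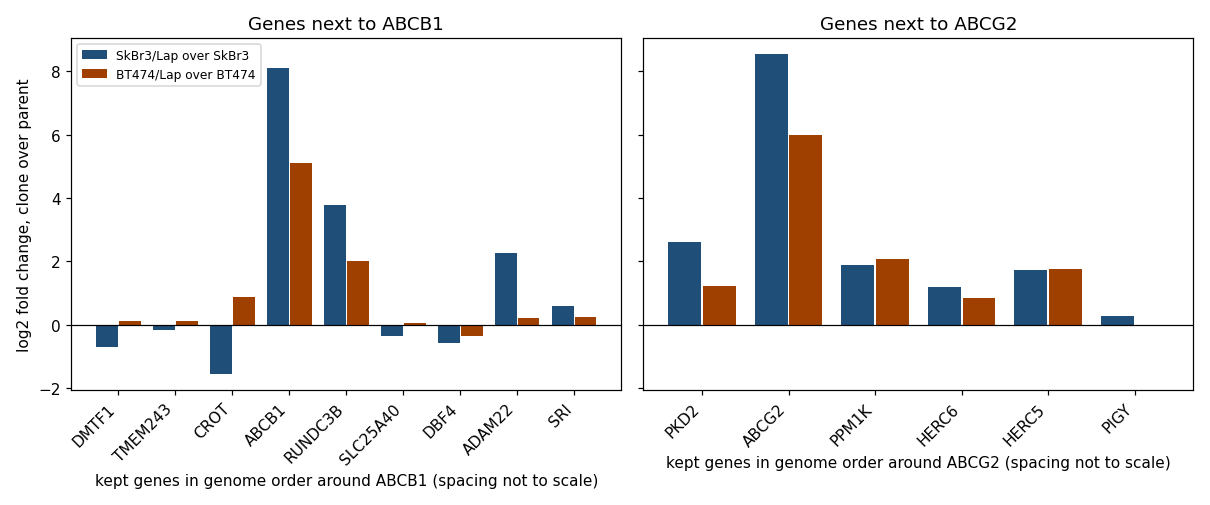
Log2 fold change of each clone over its parent (y axis) for the kept genes on either side of ABCB1 (left) and ABCG2 (right) in genome order (x axis, spacing not to scale). ABCB1 (8.11 and 5.11) and ABCG2 (8.55 and 5.98) have the tallest bars, followed by RUNDC3B on the left and PKD2 in SkBr3/Lap on the right; the ABCB1 bars and the SkBr3/Lap bar of RUNDC3B are against parental signals not well above background.

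In SkBr3/Lap cells, 5 of the 27 ABC genes were higher than in SkBr3 by 2-fold or more and 7 were lower by as much, where 12.9% and 15.6% of all kept probes were. In BT474/Lap cells, 4 genes lay above the parent by 2-fold or more and 4 below it, beside 10.3% and 5.16% of all kept probes. One of the 4 lower values, that of ABCC4, is between signals that were both not well above background, and without it 3 genes were lower, ABCC3, ABCC11 and ABCA12. The median log2 fold change of the 27 genes was -0.64 in SkBr3/Lap against -0.10 over all kept probes, and 0.03 in BT474/Lap against -0.05. Scaling by the median moved the median of all kept probes to 0.06 and -0.26 and that of the ABC genes to -0.48 and -0.18. Under it the kept probes at least 2-fold higher made up 55.3% of those past 2-fold in SkBr3/Lap, in place of 45.3%, and 48.1% in BT474/Lap, in place of 66.6%. Within 2-fold of the parent in both clones were 11 of the 27 genes, for which no share over all kept probes was counted.

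**Figure D3:**
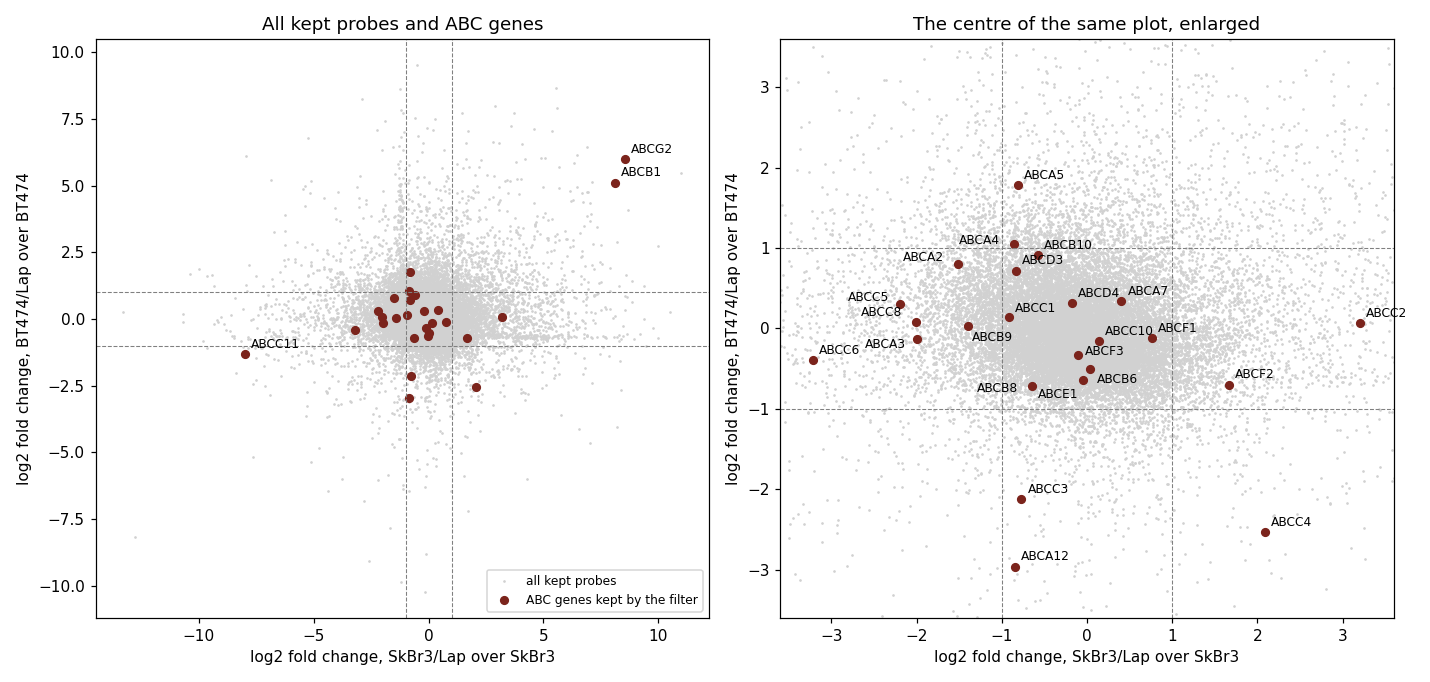
Log2 fold change in SkBr3/Lap (x axis) and BT474/Lap (y axis) of the 27 kept ABC genes (red) over all 25927 kept probes (gray), with the center enlarged on the right and dashed lines at 2-fold. ABCG2 and ABCB1 stand at the upper right and ABCC11 at the lower left, while ABCC4, whose BT474 signals were not well above background, is the one gene past 2-fold in opposite directions.

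Among the 11 drug and conjugate efflux genes, 10 passed the filter. Of these, 4 were above the parent and 3 below it by 2-fold or more in SkBr3/Lap. In BT474/Lap 2 were above and 3 below, or 2 and 2 without ABCC4. Neither ABCC4 signal of that pair was well above background. Of all kept probes, 12.9% were higher and 15.6% lower in SkBr3/Lap, and 10.3% and 5.16% in BT474/Lap. ABCC2 (MRP2), which exports glutathione and glucuronide conjugates at the apical membrane, had signals of 117 in SkBr3 and 1999 in its clone, and 374 in BT474 and 568 in its clone. It was 9.21-fold above the parent in SkBr3/Lap (log2 3.20) and within 2-fold in BT474/Lap (log2 0.07, and -0.14 under median scaling). A separate ABCC2 probe gave log2 fold changes of 3.28 and 0.18. Of the 8 kept neighbors of ABCC2, CUTC, COX15 and ERLIN1 were 2.32-fold to 2.62-fold higher in SkBr3/Lap, ENTPD7 was 2.09-fold lower, and none passed 2-fold in BT474/Lap.

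ABCC11 (MRP8), known in apocrine glands and for the earwax type, differed in the other direction. Its signal was 773 in SkBr3 and 5.63 in its clone, and 4790 in BT474 and 2776 in its clone. It was at least 108-fold lower in SkBr3/Lap, where it was not well above background, and 2.50-fold lower in BT474/Lap. The log2 value in SkBr3/Lap was -8.00, and -4.04 after normexp correction and quantile normalization. None of its 8 kept neighbors was 2-fold lower in either clone. Under the filter, its neighbor C16orf78 was 7.88-fold lower in SkBr3/Lap, with 61.35 in SkBr3 and 14.49 in its clone. ABCC12 (MRP9), which adjoins ABCC11 on chromosome 16, was under the filter, with 59.5 in BT474 and 32.0 in BT474/Lap, 2.70-fold lower, and was not well above background in the SkBr3 pair.

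ABCC3 (MRP3), a basolateral exporter of conjugates and bile acids, had signals of 286 in SkBr3 and 312 in its clone, and 5593 in BT474 and 1866 in its clone. It was 4.35-fold lower in BT474/Lap and 1.71-fold lower in SkBr3/Lap. ABCC4 (MRP4), which exports cyclic nucleotides and prostaglandins, had 14.2 in SkBr3 and 112 in its clone, and 13.3 in BT474 and 3.33 in its clone. It was well above background in SkBr3/Lap only, at least 3.78-fold higher there. A separate ABCC4 probe, under the filter, was at least 2.21-fold higher in SkBr3/Lap, with 65.9. A further one was not well above background on any array. Although the BT474/Lap value of the kept probe as it stands is lower than the BT474 value by more than 2-fold, no fold change can be given for that pair.

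ABCC5 (MRP5), an exporter of cyclic nucleotides and nucleotide analogs, was bright on all 4 arrays, with 17810 in SkBr3 and 7250 in its clone, and 12330 in BT474 and 22080 in its clone. It was 4.57-fold lower in SkBr3/Lap but 1.23-fold above the parent in BT474/Lap, and a separate probe gave log2 fold changes of -1.82 and 0.34 beside -2.19 and 0.30. ABCC6, which supports ATP release and is mutated in pseudoxanthoma elasticum, has near-identical pseudogenes that its probes may also read. Its kept probe had signals of 316 in SkBr3 and 63.2 in its clone, and 37.2 in BT474 and 41.04 in its clone, and was 9.29-fold lower in SkBr3/Lap and 1.32-fold lower in BT474/Lap. The other ABCC6 probes, both under the filter, gave other sizes in SkBr3/Lap. One, well above background on all 4 arrays, was 3.11-fold and 1.27-fold lower, with 57.6 in SkBr3 and 34.4 in SkBr3/Lap, and the other had 23.8, not well above background, and 39.0, so that no fold change can be given, and was 1.25-fold lower in BT474/Lap. ABCC1 (MRP1), an exporter of glutathione conjugates, had log2 fold changes of -0.92 and 0.14, and ABCC10 (MRP7), a taxane exporter, of 0.14 and -0.16. The direction of ABCC1 in BT474/Lap turned under median scaling, quantile normalization and normexp correction.

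Among the lipid and sterol exporters, 6 of 16 genes with a probe passed the filter. Of these, none was 2-fold higher and 2 were 2-fold lower in SkBr3/Lap, and 2 were higher and 1 lower in BT474/Lap. The shares of all kept probes were 12.9% and 15.6% in SkBr3/Lap, and 10.3% and 5.16% in BT474/Lap. ABCA5, a lysosomal lipid transporter, had signals of 1537 in SkBr3 and 1628 in its clone, and 146 in BT474 and 726 in its clone. It was 3.43-fold higher in BT474/Lap and 1.76-fold lower in SkBr3/Lap, and a separate probe gave log2 fold changes of 2.67 and -0.72. ABCA12, which loads lipids into lamellar granules of skin, had 1080 in SkBr3 and 1116 in its clone, and 674 in BT474 and 126 in its clone, and was 7.79-fold lower in BT474/Lap and 1.80-fold lower in SkBr3/Lap.

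ABCA3, which fills the lamellar bodies of lung surfactant, had 3381 in SkBr3 and 1580 in its clone, and 2359 in BT474 and 3121 in its clone. It was 3.98-fold lower in SkBr3/Lap, and its log2 fold change in BT474/Lap was -0.13. ABCA2, a sterol transporter of late endosomes and lysosomes, had 335, 218, 77.5 and 196 in the same order, and was 2.85-fold lower in SkBr3/Lap but 1.74-fold above the parent in BT474/Lap. ABCA4, known as the retinoid flippase of photoreceptors, was 2.07-fold higher in BT474/Lap (log2 1.05, and 0.84 under median scaling) and 1.81-fold lower in SkBr3/Lap. ABCA7, a phospholipid exporter, was 1.32-fold and 1.27-fold higher.

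Of the lipid exporters under the filter, ABCA1, which hands cholesterol to apolipoprotein A-I, was well above background in the BT474 pair only, with 29.8 in the parent and 43.1 in the clone, a log2 fold change of 0.00. ABCG4, a sterol exporter of the brain, had 50.5 in SkBr3 and was at least 7.06-fold lower in SkBr3/Lap. ABCA10 had 50.2 in BT474, 56.9 in its clone and 38.3 in SkBr3/Lap and was not well above background in SkBr3, and ABCA6 had 18.7 in BT474/Lap and was so nowhere else.

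Among the other B family members, ABCB9, a lysosomal peptide transporter, was 2.64-fold lower in SkBr3/Lap, with signals of 143 in the parent and 101 in the clone, and had a log2 fold change of 0.03 in BT474/Lap, with 71.7 and 106. That small value turned under median scaling and quantile normalization. The mitochondrial members stayed within 2-fold in both clones. ABCB10, which acts in heme synthesis, had log2 fold changes of -0.58 and 0.91, and all 4 of its kept probes gave these signs. ABCB6, a porphyrin transporter, had log2 fold changes of 0.03 and -0.51, the first of which turned under quantile normalization, and ABCB8, a part of the mitochondrial potassium channel, -0.64 and -0.72.

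ABCC8, the sulfonylurea receptor of pancreatic beta cells that gates a potassium channel, had signals of 63.8 in SkBr3 and 29.4 in its clone, and 590 in BT474 and 907 in its clone. It was 4.03-fold lower in SkBr3/Lap but 1.06-fold above the parent in BT474/Lap, the latter turning to -0.12 (log2) under median scaling. Of the D family, ABCD3, which takes branched fatty acids into peroxisomes, was 1.78-fold lower in SkBr3/Lap but 1.65-fold above the parent in BT474/Lap, and ABCD4, which acts in lysosomal cobalamin export, 1.13-fold lower and 1.24-fold higher.

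All 4 genes of the soluble E and F families were detected on the 4 arrays. ABCF2 had signals of 258 in SkBr3 and 1516 in its clone, and 824 in BT474 and 736 in its clone. It was above the parent by 3.16-fold in SkBr3/Lap and 1.62-fold lower in BT474/Lap. ABCF1, a factor of translation initiation, was 1.69-fold higher and 1.09-fold lower, and ABCF3 1.07-fold and 1.26-fold lower. ABCE1, which recycles ribosomes, was 1.03-fold lower and 1.55-fold lower, and in SkBr3/Lap its probes had opposite signs (log2 -0.04 and 0.22). ABCE1 and ABCF3 turned to positive values in SkBr3/Lap under median scaling.

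Of the 7 ABC genes with more than 1 kept probe, the probes shared a sign in 6 genes in SkBr3/Lap and in all 7 in BT474/Lap. The largest range within a gene was 0.68 (log2) in SkBr3/Lap and 0.90 in BT474/Lap.

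**Figure D4:**
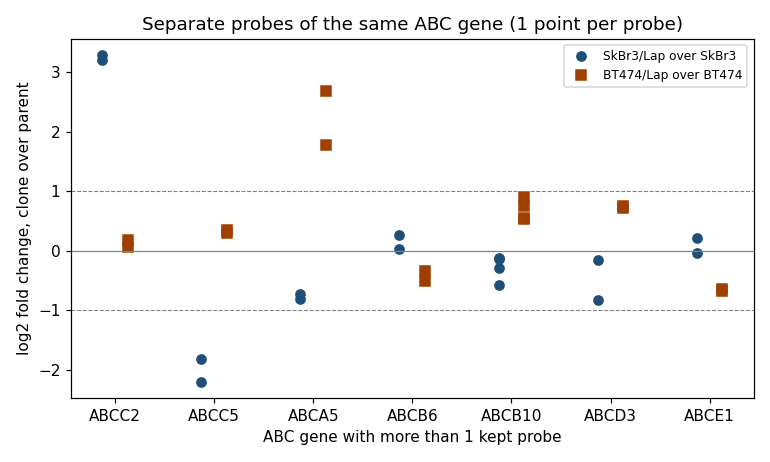
Log2 fold change of each clone over its parent (y axis) for each kept probe of the 7 ABC genes with more than 1 kept probe (x axis), with dashed lines at 2-fold. Both ABCC2 probes lie at 3.20 and 3.28 in SkBr3/Lap, both ABCC5 probes below -1 in SkBr3/Lap, and both ABCA5 probes above 1 in BT474/Lap.

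To place these changes beside what the lines already differed in, the parents were compared. Parental BT474 was at least 2-fold higher than parental SkBr3 in 6 of the 27 genes and at least 2-fold lower in 8, where 19.5% of all kept probes were higher and 19.5% lower. ABCC3 was 18.8-fold higher in BT474, ABCC8 8.90-fold, ABCC11 5.96-fold, ABCC2 and ABCF2 3.08-fold, and ABCC10 2.73-fold. ABCA5 was 10.9-fold lower in BT474, ABCC6 8.81-fold, ABCA2 4.49-fold and ABCD3 3.68-fold, and ABCB10, ABCC1, ABCB6 and ABCB9 between 2.07-fold and 2.77-fold. ABCG2 differed by 1.03-fold between the parents, and ABCB1 was not well above background in either. The parental arrays also serve as the controls of the clones, so these values and the clone changes are not independent.

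Lists of genes connected with ABC transporters were read in the same way. Of 16 transcription factors known to regulate ABC genes, 13 passed the filter, of which 1 was at least 2-fold higher and 1 lower in SkBr3/Lap, and 3 and 1 in BT474/Lap. Over all kept probes, these shares were 12.9% and 15.6% in SkBr3/Lap and 10.3% and 5.16% in BT474/Lap, which also stand beside the lists that follow. PPARA, a receptor for fatty acids, had signals of 257 in SkBr3 and 1535 in its clone, and 21.2 in BT474 and 370 in its clone, and was 3.21-fold higher in SkBr3/Lap and at least 12.0-fold higher in BT474/Lap, as the BT474 signal was not well above background. PPARG, the adipocyte receptor, had 619, 501, 53.9 and 1749 in the same order, 2.30-fold lower in SkBr3/Lap (log2 -1.20, and -0.97 after normexp correction and quantile normalization) but 22.3-fold above the parent in BT474/Lap. HIF1A, the hypoxia factor, was 1.24-fold higher and 2.15-fold lower (log2 -1.10, and -0.99 when the percentile was taken over detected probes only).

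The xenobiotic receptor PXR (NR1I2), a known inducer of ABCB1, was not well above background on any array. RXRA, the partner of these nuclear receptors, was 1.72-fold lower in SkBr3/Lap but 2.11-fold above the parent in BT474/Lap. NFE2L2, the oxidative stress factor, had log2 fold changes of 0.05 and 0.15, AHR, the dioxin receptor, -0.09 and -0.31, and the sterol-sensing liver X receptors NR1H2 0.67 and -0.06 and NR1H3 -0.15 and -0.08. Median scaling turned the signs of NFE2L2 in BT474/Lap and of AHR and NR1H3 in SkBr3/Lap, took RXRA in BT474/Lap to 0.87, and another scaling turned NR1H2 and NR1H3 in BT474/Lap. The median of the 13 was -0.09 in SkBr3/Lap, and 0.07 under median scaling, and -0.03 in BT474/Lap.

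All 8 target genes of the liver X receptors outside the ABC family were kept, of which 1 was at least 2-fold higher and 5 lower in SkBr3/Lap, and 1 and 1 in BT474/Lap. Under median scaling 4 were lower in SkBr3/Lap and 2 in BT474/Lap, as SCD, a fatty acid desaturase gene, went from -1.04 to -0.89 (log2) in SkBr3/Lap and FASN from -0.84 to -1.05 in BT474/Lap. The median log2 fold change was -1.14 and -0.49. SMPDL3A, a phosphodiesterase gene, was 5.84-fold and 4.17-fold higher, and FASN, the fatty acid synthase, 4.55-fold and 1.79-fold lower. PLTP, the phospholipid transfer protein, had 2686 in SkBr3 and 95.6 in SkBr3/Lap, 52.3-fold lower, and was not well above background in the BT474 pair. APOE, the lipid carrier, was 45.1-fold lower in BT474/Lap and 1.26-fold higher in SkBr3/Lap.

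Of 27 carriers of the SLC families that bring drugs into cells or exchange them, 11 passed the filter. In SkBr3/Lap 5 of these were at least 2-fold higher and none lower, and in BT474/Lap 4 were higher and 1 lower, with median log2 fold changes of 0.72 and 0.75. In BT474/Lap 2 were lower under median scaling and under quantile normalization, and after normexp correction 4 were higher in SkBr3/Lap and 3 in BT474/Lap. SLC22A4, the ergothioneine carrier, was 3.75-fold and 3.83-fold higher in the clones. SLCO4A1, an organic anion carrier, was higher by 8.96-fold in SkBr3/Lap and by 1.68-fold in BT474/Lap, and SLC29A1, the nucleoside carrier ENT1, 2.62-fold higher in SkBr3/Lap and 1.35-fold lower in BT474/Lap. SLC47A1, the exporter MATE1, was 6.93-fold higher in BT474/Lap and SLCO3A1 5.42-fold, and in SkBr3/Lap their log2 fold changes were -0.09 and -0.04, turning to 0.07 and 0.12 under median scaling.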

How the data were processed

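RNA of 4 samples, 1 per group, was measured on Agilent 4 × 44 K arrays. The authors deposited, per the file headers, spot intensity values from Feature Extraction 10.1.1.1 for a single Cy3 channel, after background subtraction and without scaling between arrays, whereas the paper's methods name an earlier version, Cy3 or Cy5, and LOWESS. They also deposited log2 values per probe, close to the log2 processed signal shifted per array and centered per probe.

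The log2 values of a probe's spots were averaged, and the 75th percentile over 41000 probes was subtracted. Of these, 25927 (63.2%) had a signal of at least 100 on at least 1 array and were kept. No spot was saturated, and 66.6% to 74.0% of the probes were well above background. Probes were named by RefSeq accession (GRCh38.p14), 23675 in all. A gene was represented by the kept probe of highest mean log2 signal, and the members have 58 probes, 36 of them kept, whereas shares over all kept probes count probes. Where only 1 of 2 compared signals was well above background, the other was replaced by the lowest such signal on that array (13.3 to 16.0), unless its own was higher, and the fold change is a limit.

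With 1 array per group no test within a pair was possible, and the number of arrays limits the precision. limma 3.58.1 in R 4.3.3 was fitted over all kept probes, and was tested on simulated data. Python 3.11.15, numpy 2.4.6 and pandas 2.3.3 did the rest. The genes named are all members, the 3 largest changes per list and clone, and NR1I2, NR1H2, NR1H3, RXRA, NFE2L2 and AHR. The members and lists were chosen with earlier results of these data known, and the neighboring genes, those named among them and the promoter windows after the members' values were seen. The alternatives were other scalings, background corrections, filters, thresholds, spot and probe summaries, the deposited log2 table and limma without a block.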

Additional observations from a re-analysis of the deposited data

Results flagged for a closer look

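Among ABC genes that were well above background on all 4 arrays, 5 moved in opposite directions in the 2 clones and by at least 4-fold relative to each other. With 1 array per group, none of these differences was tested. The log2 fold change in SkBr3/Lap minus that in BT474/Lap was -2.50 for ABCC5, -2.59 for ABCA5 and -2.31 for ABCA2, which were lower in SkBr3/Lap and higher in BT474/Lap. It was -2.09 for ABCC8, for which the BT474/Lap value of 0.08 changed sign under median scaling and under normexp correction with quantile normalization. It was 2.36 for ABCF2, which was higher in SkBr3/Lap and lower in BT474/Lap. For ABCC5 and ABCA5 a separate probe gave the same signs in both clones.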

How the results depend on the processing

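None of the 534 fold changes of single ABC genes recomputed under the alternatives was counted as reversed, which was asked only of values of at least 2-fold, but 176 of them moved by more than the median SD of spots repeated within an array and 358 did not. Of the counts, 67 stayed within 1.5 times of the value reported while 9 did not. Without the filter, 20 genes were at least 2-fold lower in SkBr3/Lap, 8 in BT474/Lap and 5 in both, and no share over all probes was counted beside them. Of the 15 genes under the filter, 13 were then 2-fold lower in SkBr3/Lap, and neither SkBr3 array showed 12 of these well above background. With only the genes well above background on all 4 arrays, which leaves out ABCB1, ABCC4 and ABCC11 by construction, 3 were higher in SkBr3/Lap, 2 lower in BT474/Lap, 1 higher in both and 0 lower in both. Normexp correction with quantile normalization left 4 genes 2-fold lower in SkBr3/Lap, and the cause was not tested. The share of all kept probes that were 2-fold lower there was 8.89% under this setting, in place of 15.6%. A threshold of 3-fold left 0 genes lower in both clones. For this threshold and for the genes well above background on all 4 arrays, no share over all probes was counted either. limma gave 0 members with an adjusted p below 0.05 under every alternative run, while 2 to 8 had an unadjusted p below 0.05. The block of that fit paired each clone with its own parent, and leaving the block out gave 0 such members as well.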
